A study of Mus musculus with 12 samples.

Results

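Planar cell polarity, the alignment of cells within the plane of a tissue, is set up by a small group of membrane and scaffold proteins. The expression of 8 genes for these proteins, Celsr1, Celsr2, Celsr3, Vangl1, Vangl2, Prickle1, Prickle2 and Scrib, was examined in 12 SVR tumors. The genes were found by their symbols among the 54232 genes of the count table, and all 8 passed the filter on low counts. Celsr2 passed it only through the tumors that received cediranib, alone or in combination. They were chosen by membership in the pathway and by a measured pattern, since Celsr2 had been seen to differ with cediranib and with the skin content of the tumors. The values of Celsr2 in cediranib treated and combination treated tumors are therefore given as a description, with no test.

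SVR is a mouse angiosarcoma line made from endothelial cells transformed with activated Ras. The cells were injected subcutaneously into athymic nude mice, which lack mature T cells but keep other host cells, and the mice were gavaged daily. Control mice (3 tumors) received vehicle, and the other groups of 3 tumors received trametinib at 1 mg/kg, an inhibitor of the kinase MEK, cediranib at 3 mg/kg, an inhibitor of the VEGF receptors, or both drugs (combination). RNA from whole tumors was captured with exome probes and counted per gene. The paper gives relatively high degradation of the tumor RNA as the reason for this method. Tumors were harvested in the study either on a common day or at a size limit. The harvest point of the sequenced tumors was not named in the sources used, and time on treatment may differ between groups. SVR cells, host stroma and overlying skin are all of mouse origin and share the same reads. In such bulk samples, fewer cells of a type and less RNA per cell cannot be told apart. The libraries held 9478865 to 11666094 counts, and 3 counts corresponded to 0.251 to 0.349 CPM, counts scaled to a library of 1e+06 with TMM library sizes. The paper describes an injection into the flank of each mouse. The labels do not say whether tumors of a group came from separate mice, so the spread is that between these tumors.

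Celsr proteins are large cadherins with a seven-pass membrane domain that bind the same protein on the neighboring cell and so link the cells. Vangl proteins span the membrane and recruit the cytoplasmic Prickle proteins to one side of the cell, while Frizzled and Dishevelled gather on the opposite side. Scrib is a scaffold of the basolateral membrane that binds Vangl2 and also acts in apical-basal polarity. In skin the pathway orients the hair follicles, and in endothelium it takes part in the alignment and migration of vessel cells.

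The promoters of the genes that varied most with treatment, Celsr2 and the Prickle pair, are shown because they differ in the letters searched for. Each sequence is the 250 bases before the transcription start in the RefSeq annotation of GRCm38.p6, all on the minus strand, and capitals mark the GC box GGGCGG on either strand. Celsr2 lies at chr3:108415580-108415829, Prickle1 at chr15:93595903-93596152 and Prickle2 at chr6:92706185-92706434.
Celsr2: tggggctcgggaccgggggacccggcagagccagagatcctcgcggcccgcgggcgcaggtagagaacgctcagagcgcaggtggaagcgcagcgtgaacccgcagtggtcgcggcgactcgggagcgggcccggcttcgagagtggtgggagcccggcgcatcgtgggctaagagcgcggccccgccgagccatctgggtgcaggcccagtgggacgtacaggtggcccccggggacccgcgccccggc
Prickle1: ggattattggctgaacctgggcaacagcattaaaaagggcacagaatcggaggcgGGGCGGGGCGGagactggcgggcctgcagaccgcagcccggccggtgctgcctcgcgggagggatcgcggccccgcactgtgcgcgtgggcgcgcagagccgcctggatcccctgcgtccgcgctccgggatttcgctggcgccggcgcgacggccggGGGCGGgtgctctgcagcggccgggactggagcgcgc
Prickle2: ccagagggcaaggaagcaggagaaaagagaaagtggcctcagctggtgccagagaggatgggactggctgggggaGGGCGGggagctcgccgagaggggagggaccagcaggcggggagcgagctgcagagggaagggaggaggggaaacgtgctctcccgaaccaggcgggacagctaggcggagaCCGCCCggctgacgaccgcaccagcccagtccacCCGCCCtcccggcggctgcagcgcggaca
The Celsr2 window held 32 CpG dinucleotides at 75.2% G and C, and none of the motifs AP-1 (TGAGTCA or TGACTCA), ETS (CCGGAAG), TEAD (GGAATG) or GC box was found on either strand. The Prickle1 window held 3 GC boxes, of which the upstream pair overlaps, with 34 CpG at 74.0% G and C. The Prickle2 window held 3 GC boxes with 18 CpG at 70.0% G and C. A GC box was present in 32.7% of the 32851 promoters of the same length, an AP-1 motif in 4.46%, an ETS motif in 6.91% and a TEAD motif in 12.6%. The median promoter held 6 CpG at 52.4% G and C. A match is a description of the letters and not of a bound site. Celsr3, Vangl2 and further starts of both Prickle genes also had entries and are not printed.

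Scrib and Vangl1 held the most CPM per kilobase of the 8 genes in control tumors, and Celsr2 the least. Probes may capture genes unequally, so this order is one of captured counts and not of transcript abundance. Per kilobase of annotated exon, control tumors held 6.83 CPM of Scrib and 5.85 of Vangl1, and their ranges overlapped. Vangl2 followed at 2.12 CPM per kilobase, then Celsr1 at 1.07, Prickle1 at 0.530, Prickle2 at 0.269, Celsr3 at 0.101 and Celsr2 at 0.0398. The neighbors Celsr1 and Prickle1 overlapped in this order, as did Prickle1 and Prickle2, while the others did not. In trametinib treated tumors Vangl1 stood first at 8.51 and Scrib second at 7.56 CPM per kilobase, with overlapping ranges. Celsr2 stayed last there, at 0.0185. In cediranib treated tumors Celsr2 reached 0.381 CPM per kilobase, overlapping Prickle1 at 0.423 and Prickle2 at 0.216. In combination treated tumors Celsr2 reached 1.19 CPM per kilobase, below Celsr1 at 1.83 and above Prickle1 at 0.931, with no overlap with either.

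**Figure D1:**
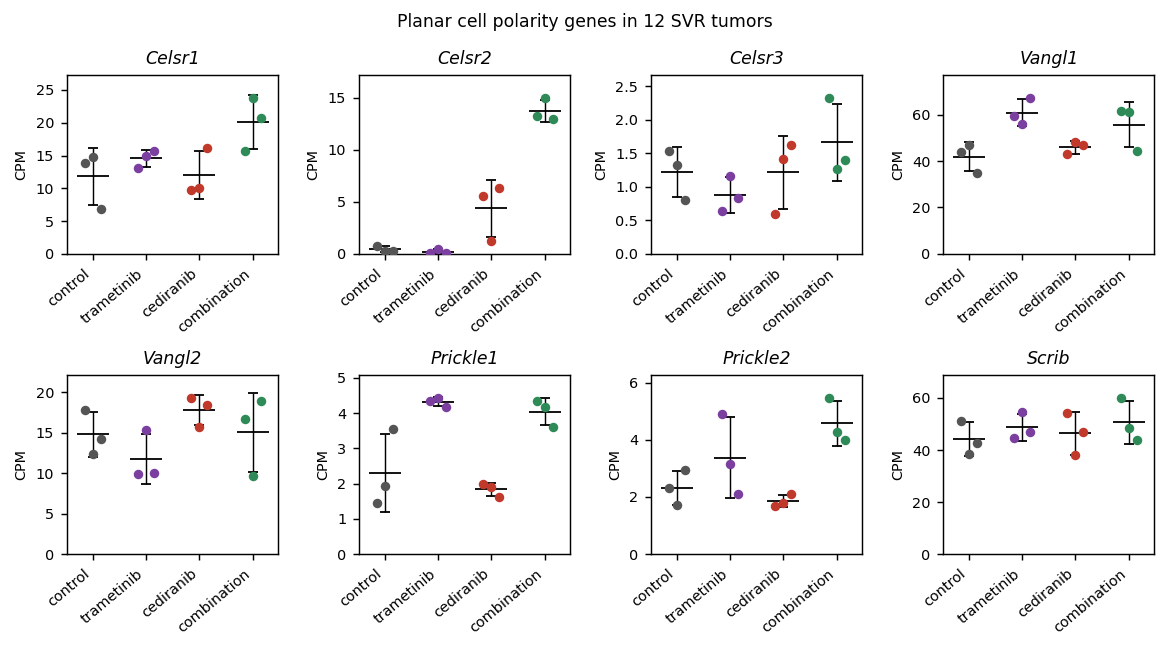
Expression of the 8 genes in CPM (vertical axis of each panel, from 0) in each of the 12 tumors by treatment, with points for tumors and bars for the mean and SD of 3. Celsr2 lies under 1 CPM in control and trametinib treated tumors and reaches 13.0 to 14.98 CPM in combination treated tumors, while Scrib stays between 37.9 and 59.9 CPM.

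Celsr2 had the widest range of the 8 genes. The gene (ENSMUSG00000068740) spans chr3:108390851-108415552 of GRCm38 on the minus strand, and no other annotated gene overlaps it. Its levels in control tumors were 0.767, 0.304 and 0.303 CPM, from 9, 3 and 3 counts. In trametinib treated tumors they were 0.0908, 0.466 and 0.0837 CPM, from 1, 4 and 1 counts. In cediranib treated tumors they were 5.60, 1.23 and 6.32 CPM, and in combination treated tumors 13.2, 14.98 and 13.0 CPM. The control and trametinib groups overlapped near the counting floor, every cediranib treated tumor was above them, and every combination treated tumor was above every cediranib treated tumor. The highest library held 179 times the level of the lowest, against a ratio of 1.58 for Scrib and 1.94 for Vangl1.

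The group means of Celsr2 were 0.458 ± 0.267 CPM in control, 0.213 ± 0.218 in trametinib, 4.38 ± 2.75 in cediranib and 13.7 ± 1.08 in combination treated tumors (SD, n = 3 each). On the log2 scale of the edgeR fit, Celsr2 was higher by 3.19 ± 0.62 (SE) in cediranib than in control and by 4.84 ± 0.62 in combination than in control, comparisons that share the control tumors. Between combination and trametinib the difference was 6.06 ± 0.70, and between combination and cediranib 1.65 ± 0.49. Groups whose libraries did not overlap, with the first named higher, were found for 4.31% of all tested genes in cediranib against control. The share was 15.6% in combination against control, 12.4% in combination against trametinib and 14.1% in combination against cediranib. Trametinib against control is the comparison in which Celsr2 was tested, and the log2 difference of -1.23 ± 0.88 did not pass the edgeR quasi-likelihood test (adjusted p = 0.491). It rested on 6 counts against 15, a ratio of 0.399 with an exact 95% interval of 0.127 to 1.09 that covers counting error only. Leaving out 1 tumor moved this value to between -2.28 (without trametinib treated tumor 2) and -0.63 (without control tumor 1), with adjusted p from 0.292 to 0.82. At this depth, and for a gene kept through other groups, the fit cannot decide whether control and trametinib treated tumors differ.

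Keratin and other epidermal genes were higher in the tumors with high Celsr2, and hair follicle genes were so in some of them. The summed level of the 54 keratin genes was 852, 119 and 189 CPM in control tumors and 91.6, 69.5 and 60.0 CPM in trametinib treated tumors. In cediranib treated tumors it was 5408, 116 and 3779 CPM, and in combination treated tumors 4929, 7164 and 5572 CPM. The cediranib treated tumor with the lowest Celsr2 was thus the tumor with the lowest keratin sum of its group. Of a list of 28 other epidermal genes, 24 were tested, and their sum ranged from 58.2 to 113 CPM in control, 48.2 to 77.8 in trametinib, 86.5 to 347 in cediranib and 395 to 627 in combination treated tumors. The epidermal differentiation gene Krtdap was close to 0, with 12 counts over all 12 libraries. Of the 24 genes, 11 rose in combination against control by the edgeR test and 10 in combination against trametinib, while 0 were called in cediranib against control. Hair follicle genes, a list of 13 with 10 tested, summed to 97.1 to 147 CPM in control and 60.9 to 138 in trametinib treated tumors. The sums were 69.9 to 778 CPM in cediranib and 287 to 520 in combination treated tumors. Of the 10, 7 rose in combination against control and 1 in trametinib against control. In combination against trametinib and in cediranib against control 0 of the 10 were called. In cediranib treated tumors 1 and 2 the hair follicle sums of 69.9 and 76.0 CPM were below those of all control tumors. The part of skin content in the Celsr2 difference was not tested.

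An epidermal score was taken as the mean log2 CPM of the 24 epidermal genes. With the score as a covariate, the log2 difference of Celsr2 was 1.92 for cediranib against control and 2.86 for combination against control. It was 3.24 for combination against trametinib and 0.94 for combination against cediranib. In the tested comparison, trametinib against control, it moved from -1.23 to -0.38 (adjusted p = 0.775 by edgeR). The scores were -0.965 to -0.708 in trametinib, -0.396 to 1.26 in control and 2.95 to 3.64 in combination treated tumors, with no overlap. Score and treatment thus cannot be separated between these groups. Celsr2 was also chosen with its relation to skin content known, so the values with the score are a description. The scores formed a low and a high cluster of tumors, with control tumor 1 between them at 1.26, so no correlation with Celsr2 is given.

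**Figure D2:**
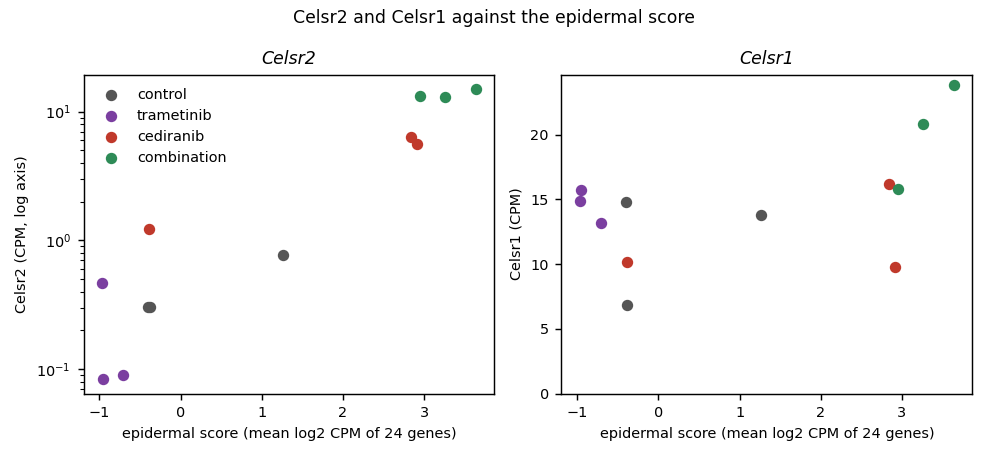
Levels of Celsr2 (left, CPM on a log axis) and Celsr1 (right, CPM) against the epidermal score (horizontal axis, mean log2 CPM of 24 epidermal genes), 1 point for each of the 12 tumors, colored by treatment. The combination treated tumors and cediranib treated tumors 1 and 3 have scores of 2.84 to 3.64, and cediranib treated tumor 2 has a score of -0.386 with the lowest Celsr2 level of its group. Celsr1 ranges from 6.87 to 23.8 CPM.

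The genes with the pattern most like Celsr2 over the 12 libraries, by Pearson correlation of log2 CPM, were Epha1 at 0.976, Tenm2 at 0.974, Ovol1 at 0.973, Plch2 at 0.969 and Pou2f3 at 0.966. These points share the library, the depth, the treatment groups and the low and high clusters of the epidermal score. Celsr2 was chosen for this pattern, so its correlations are a description. Epha1, an ephrin receptor, ranged from 2.03 to 2.53 CPM in control, 1.09 to 2.10 in trametinib, 2.65 to 6.70 in cediranib and 8.28 to 13.3 in combination treated tumors. Ovol1, an epithelial transcription factor, was at 0 counts in all trametinib treated tumors and between 2.63 and 2.97 CPM in combination treated tumors. The number of genes correlated above 0.9 was 101 for Celsr2, 15 for Prickle1 and 0 for Celsr3, Vangl2 and Scrib. With the other 7 genes Celsr2 correlated between -0.03 (Prickle1) and 0.50 (Celsr3).

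Among the Celsr genes, which share the same domain layout, Celsr1 had the highest counts in every group. Its levels were 13.8, 14.8 and 6.87 CPM in control, 13.2, 14.9 and 15.7 in trametinib, 9.79, 10.1 and 16.2 in cediranib, and 15.8, 23.8 and 20.8 in combination treated tumors. The combination treated tumors did not overlap the control tumors, as for 15.6% of all tested genes in that direction. They also did not overlap the trametinib treated tumors, as for 12.4%. Celsr1 averaged 20.1 ± 4.06 CPM in combination and 11.8 ± 4.32 in control tumors (SD, n = 3 each), and the log2 difference of 0.77 ± 0.29 did not pass the edgeR test (adjusted p = 0.113). Celsr3 was low, with 1.53, 1.32 and 0.81 CPM in control, 0.64, 1.16 and 0.84 in trametinib, 0.60, 1.42 and 1.63 in cediranib and 2.32, 1.27 and 1.39 in combination treated tumors. The trametinib and combination groups of Celsr3 did not overlap, as for 12.4% of all tested genes in that direction. The log2 difference of 0.92 ± 0.47 did not pass the edgeR test (adjusted p = 0.333). A microRNA gene lies inside Celsr3 on the same strand and held 30 counts over all libraries. By the same correlation, the genes most like Celsr1 were Tom1l2 at 0.929, Grik5 at 0.902 and Ddr1 at 0.899, and those most like Celsr3 were Mettl3 at 0.88, Nfkb1 at 0.875 and Hltf at 0.837.

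The share of Celsr2 among all Celsr counts differed between tumors. It was 4.76%, 1.85% and 3.80% in control tumors, with 95% Wilson intervals from 0.632% to 10.6% over the 3 tumors. Trametinib treated tumors had shares of 0.654%, 2.82% and 0.503%, cediranib treated tumors 35.0%, 9.63% and 26.2%, and combination treated tumors 42.3%, 37.4% and 36.9%. In the combination group the intervals of the 3 tumors together spanned 32.2% to 47.8%. In cediranib treated tumor 2 the interval was 5.71% to 15.8%, below those of the other cediranib treated tumors. These intervals cover counting error only.

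**Figure D3:**
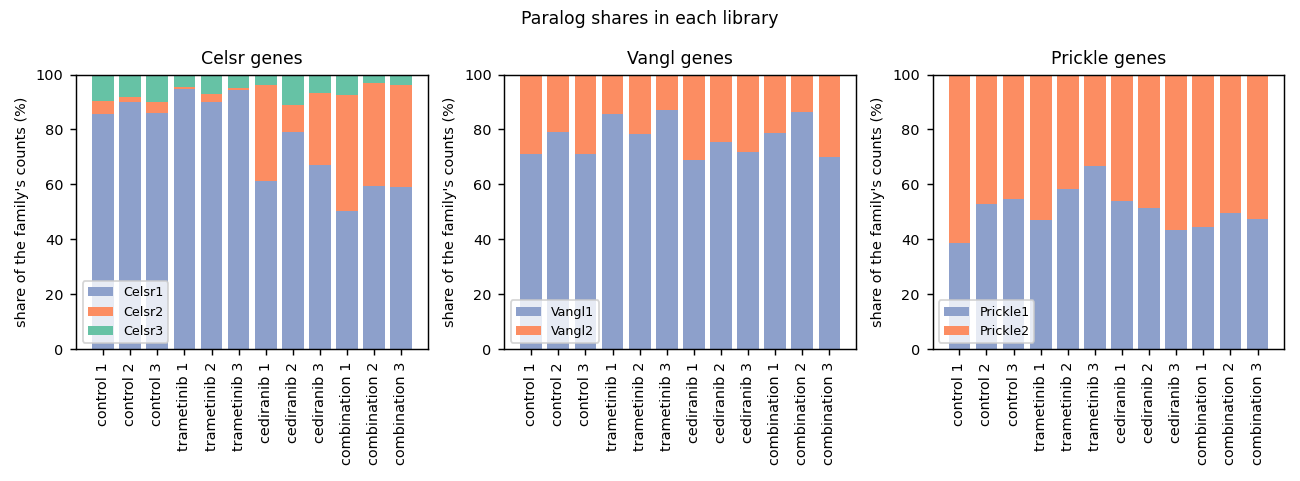
Stacked bars of each gene's share of the counts of its family (vertical axis, percent) for the Celsr, Vangl and Prickle genes in each of the 12 tumors (horizontal axis). The Celsr2 share is at most 4.76% in control and trametinib treated tumors and at least 36.9% in combination treated tumors, while the Vangl1 share stays between 69.0% and 87.0%.

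Vangl1 (ENSMUSG00000027860, chr3:102153583-102204693, minus strand) was higher in trametinib treated than in control tumors without passing the test. It measured 43.9, 46.9 and 34.8 CPM in control, 59.4, 56.1 and 67.2 in trametinib, 42.9, 48.1 and 46.9 in cediranib and 61.4, 61.1 and 44.4 in combination treated tumors. Trametinib treated tumors did not overlap the control tumors, as for 12.9% of all tested genes in that direction. The log2 difference was 0.54 ± 0.16, with an adjusted p of 0.0623 by edgeR and 0.0194 by DESeq2. Vangl1 was the gene nearest to the threshold in this comparison. An antisense gene on the other strand held 1 count over all libraries.

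Vangl2 (ENSMUSG00000026556, chr1:172000960-172028444, minus strand), the family member mutated in the loop-tail mouse, passed the test in no comparison. It measured 17.9, 12.4 and 14.2 CPM in control, 9.90, 15.4 and 10.1 in trametinib, 19.3, 15.7 and 18.5 in cediranib and 16.7, 9.62 and 18.9 in combination treated tumors. The ranges of the control group overlapped those of all treated groups. The log2 difference of trametinib against control was -0.34 ± 0.26 (adjusted p = 0.532 by edgeR), and that of combination against control was 0.02 ± 0.26 (adjusted p = 0.97). Vangl1 and Vangl2 correlated at -0.59 over the 12 libraries, which share their treatment groups. Vangl1 made up 69.0% to 87.0% of the Vangl counts. The genes most like Vangl1 were Otud7b at 0.954, Gm15265 at 0.95 and Rnf13 at 0.94, and those most like Vangl2 included Evi5 at 0.88.

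Prickle1 was higher in the tumors that received trametinib, alone or with cediranib. The gene (ENSMUSG00000036158) spans chr15:93499114-93595891 on the minus strand. It measured 1.45, 1.93 and 3.54 CPM in control tumors, 4.36, 4.42 and 4.19 in trametinib, 2.00, 1.89 and 1.63 in cediranib, and 4.34, 4.18 and 3.62 in combination treated tumors. The 6 trametinib exposed tumors lay between 3.62 and 4.42 CPM and the 6 others between 1.45 and 3.54 CPM, so the groups did not overlap, as for 3.64% of all tested genes in that direction. The closest values were 3.62 in a combination treated and 3.54 in a control tumor. Prickle1 rose in combination against cediranib by 1.13 ± 0.31 on the log2 scale (adjusted p = 0.0463 by edgeR, 95% interval 0.46 to 1.81). This is below the log2 threshold of 1.5, so the gene was not called. Against control, the log2 differences were 0.91 ± 0.30 for trametinib (adjusted p = 0.105) and 0.82 ± 0.30 for combination (adjusted p = 0.109). Without control tumor 3 they were 1.36 and 1.26, with adjusted p of 0.0216 and 0.0314.

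Prickle2 (ENSMUSG00000030020, chr6:92370908-92706155, minus strand) had a similar order of groups. It measured 2.30, 1.72 and 2.93 CPM in control, 4.90, 3.14 and 2.09 in trametinib, 1.70, 1.797 and 2.11 in cediranib, and 5.45, 4.27 and 3.99 in combination treated tumors. Combination treated tumors were above all control tumors, as for 15.6% of all tested genes in that direction. They were also above all cediranib treated tumors, as for 14.1%. Of the trametinib treated tumors, 1 lay within the control range. Prickle2 rose in combination against cediranib by 1.29 ± 0.34 on the log2 scale (adjusted p = 0.0391 by edgeR, 95% interval 0.56 to 2.02), again below 1.5. Both Prickle genes thus passed the adjusted p alone there, as did 3.9% of all tested genes in the higher direction. Leaving out any 1 of the 6 tumors compared raised the adjusted p of Prickle1 to between 0.0806 and 0.119 and that of Prickle2 to between 0.0678 and 0.116. Prickle1 and Prickle2 correlated at 0.76 over the 12 libraries, which share their treatment groups, and Prickle1 made up 38.6% to 66.7% of their counts. The genes most like Prickle1 were Mrgprf at 0.95, Vegfd at 0.946 and Gab1 at 0.946, and those most like Prickle2 were Ern1 at 0.951, Cntrob at 0.93 and Map3k14 at 0.924.

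A contrast of the mean of the trametinib and combination groups with the mean of the control and cediranib groups was added after the values were seen. It sets 6 tumors against 6 in the same fit and leaves out Celsr2. Prickle1 rose by 1.02 ± 0.22 (adjusted p = 0.00757 by edgeR), Prickle2 by 0.91 ± 0.24 (adjusted p = 0.0201) and Vangl1 by 0.41 ± 0.11 (adjusted p = 0.0248). These 3 of 7 genes passed the adjusted p alone, as did 8.2% of all tested genes in the higher direction, and 0 of 7 reached the log2 threshold of 1.5, against 3.3% of all tested genes in either direction. The Prickle1 result held without any 1 tumor, the Prickle2 result in 11 of 12 such fits and the Vangl1 result in 7 of 12. The Vangl1 difference did not pass without control tumor 3, trametinib treated tumor 3, cediranib treated tumor 1 or combination treated tumor 1 or 2, with adjusted p up to 0.0622. Without trametinib treated tumor 1 the Prickle2 difference was 0.72 (adjusted p = 0.0544).

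**Figure D4:**
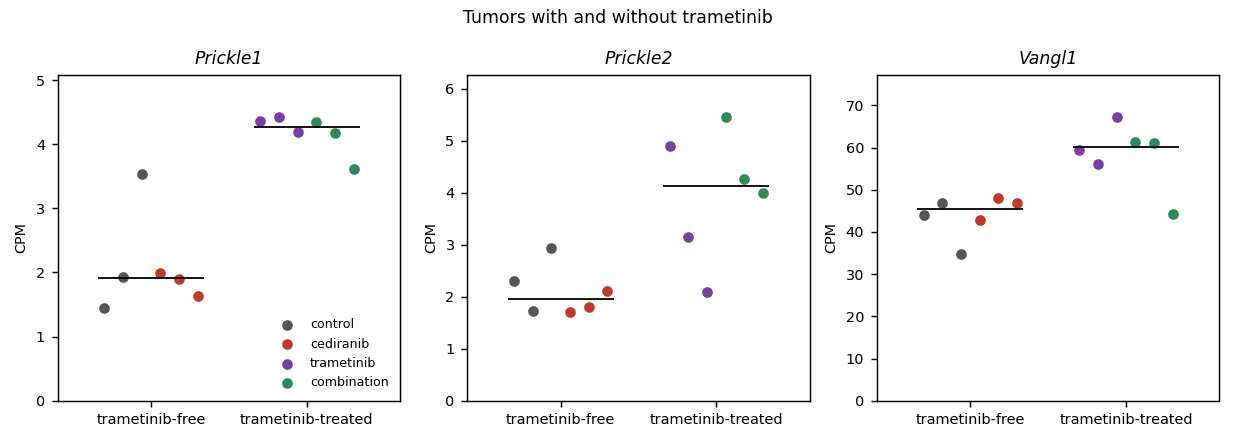
Level in CPM (vertical axis, from 0) of Prickle1, Prickle2 and Vangl1 in the 6 tumors without and the 6 with trametinib, 1 point for each tumor, colored by treatment. The Prickle1 groups do not overlap, at 1.45 to 3.54 and 3.62 to 4.42 CPM, and 5 of 6 trametinib exposed tumors lie above all others for Prickle2 and Vangl1.

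Markers of other cell types were read beside these differences. The summed level of 8 fibroblast genes was 2224, 7459 and 21140 CPM in control, 16820, 37110 and 8855 in trametinib, 3432, 6796 and 1751 in cediranib, and 5932, 3132 and 5258 in combination treated tumors. The fibroblast sums of the combination treated tumors lay within the control range. By the edgeR test, 1 of the 8 genes rose in trametinib against control, 1 in combination against control and 1 in combination against cediranib. In the added contrast of 6 tumors against 6, 3 of the 8 rose. The median log2 difference of the 8 genes was 1.445, 0.599, 1.409 and 1.491 in the same order. The 12 endothelial genes summed to 210 to 441 CPM in control and 123 to 331 in cediranib treated tumors, and to 52.8 to 114 CPM in trametinib and 33.9 to 85.3 in combination treated tumors. Of the 10 endothelial genes tested, 4 fell in trametinib against control, 5 in combination against control and 3 in combination against cediranib. In the added contrast 4 of the 10 fell. Emcn was close to 0 with 12 counts in all. Macrophage genes summed to 387 to 683 CPM in control, 305 to 431 in trametinib, 282 to 439 in cediranib and 174 to 308 in combination treated tumors. Skeletal muscle genes stood apart in control tumor 2, at 17230 CPM, and trametinib treated tumor 2, at 24020 CPM, against 6.06 to 1988 CPM in the other tumors. Nerve and Schwann cell genes lay between 280 and 1090 CPM in all tumors, and adipocyte genes between 0.670 and 14.7 CPM. The part of cell content in the Prickle and Vangl1 differences was not tested.

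Scrib (ENSMUSG00000022568, chr15:76047158-76069754, minus strand) varied least of the 8 genes. It measured 51.2, 38.4 and 42.6 CPM in control, 44.8, 54.7 and 46.8 in trametinib, 54.3, 37.9 and 47.1 in cediranib and 59.9, 48.3 and 43.8 in combination treated tumors. All groups overlapped. The largest log2 difference from control was 0.20 ± 0.17, in combination treated tumors (adjusted p = 0.49 by edgeR). The genes most like Scrib were Nsg1 at 0.891, Smad2 at 0.869 and Cdc42ep4 at 0.854.

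**Figure D5:**
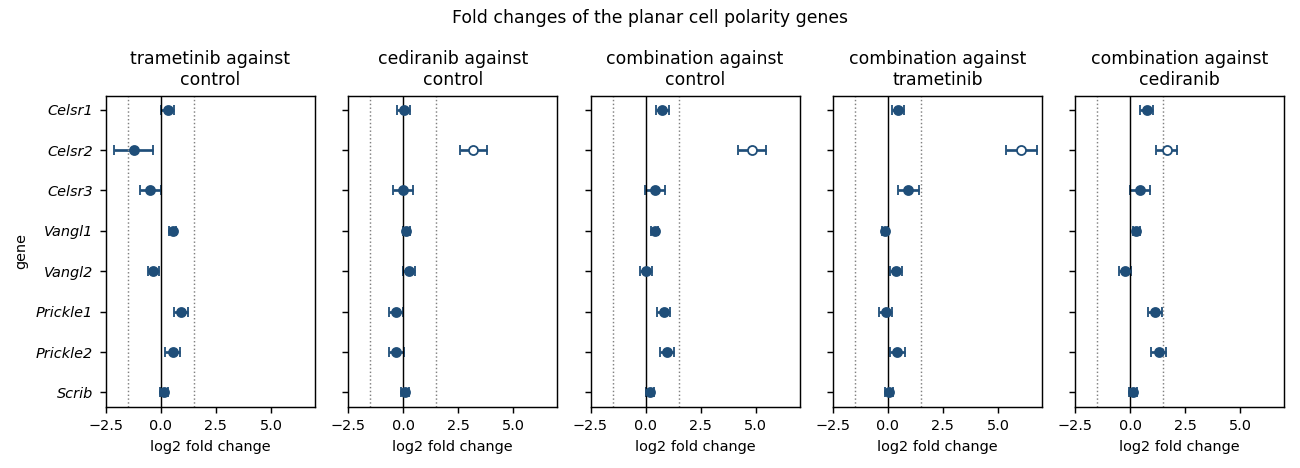
Log2 differences of the 8 genes (horizontal axis) in each comparison, 1 panel for each of 5 comparisons, with bars for the SE, dotted lines at -1.5 and 1.5, and open points where Celsr2 is described without a test. Celsr2 lies at 3.19 in cediranib against control and 4.84 in combination against control, while the other 7 genes lie between -0.49 and 1.29 in these comparisons.

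No member was called, that is, passed an adjusted p of 0.05 with a log2 difference of at least 1.5. In trametinib against control this was 0 of 8, with 2 genes at an unadjusted p under 0.05, against 2.4% of all tested genes called. Without Celsr2 it was 0 of 7 in cediranib against control (0.0% of all genes), in combination against control (3.61%), in combination against trametinib (0.675%) and in combination against cediranib (2.45%). An unadjusted p under 0.05 was reached by 0, 4, 0 and 3 of these 7 genes in that order. Of all 12897 tested genes, 557, 3513, 2309 and 2980 reached it in the same order, and 2665 in trametinib against control. DESeq2 also called 0 members in each of these comparisons. The median log2 difference of the 7 genes was 0.02 in cediranib against control, 0.43 in combination against control, 0.36 in combination against trametinib and 0.44 in combination against cediranib, where the median of all tested genes lay between -0.01 and 0.00. The interaction of the drugs was called for 0 of 7 genes and for 0.0% of all genes, with adjusted p of the 7 genes from 0.768 to 0.991 and 0 of them at an unadjusted p under 0.05. In cediranib against control the adjusted p of all 7 genes was 0.999. Over all genes, 909 reached an unadjusted p under 0.05 in the interaction. DESeq2 called 10 genes in cediranib against control and 28 in the interaction.

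The other genes of the pathway were read from lists of 56 genes, of which 49 were tested. Higher and lower calls numbered 1 and 1 in trametinib against control (0.977% and 1.43% of all tested genes), 1 and 1 in combination against control (1.91% and 1.71%), 1 and 0 in combination against trametinib (0.535% higher) and 1 and 0 in combination against cediranib (1.29% higher). In cediranib against control and in the interaction 0 were called. The median log2 difference of the 49 genes was 0.12, 0.19, 0.02 and 0.13 in the same order of comparisons.

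Gpc4, a glypican that acts as a Wnt co-receptor, rose in all 3 comparisons of tumors with and without trametinib that were tested between single groups. It measured 8.01, 12.5 and 18.1 CPM in control, 42.7, 56.9 and 40.1 in trametinib, 9.29, 14.8 and 8.61 in cediranib, and 28.6, 46.8 and 44.6 in combination treated tumors. The tumors with and without trametinib did not overlap, as for 3.64% of all tested genes in that direction. The log2 difference was 1.86 ± 0.31 in trametinib against control (adjusted p = 0.00438 by edgeR), 1.64 ± 0.31 in combination against control (adjusted p = 0.00868) and 1.88 ± 0.31 in combination against cediranib (adjusted p = 0.00564). The adjusted p stayed below 0.05 in every alternative, and the lowest log2 difference with a tumor left out was 1.39, in combination against control.

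The other 3 calls between single groups were close to the threshold of the adjusted p. Fat2, a protocadherin of the Fat family, measured 1.70, 3.35 and 3.54 CPM in control and 0.817, 0.582 and 0.251 in trametinib treated tumors. It fell by 2.36 ± 0.64 on the log2 scale (adjusted p = 0.0486 by edgeR). Combination treated tumors, at 2.63, 2.09 and 2.32 CPM, lay within the control range, with a log2 difference of -0.28 (adjusted p = 0.792 by edgeR). Cediranib treated tumors measured 7.19, 1.23 and 2.97 CPM. In the added contrast of 6 tumors against 6, Fat2 fell by 1.53 (adjusted p = 0.0269 by edgeR). That result held in 5 of 12 fits without 1 tumor. Ror2, a Wnt5a receptor, measured 3.92, 16.1 and 30.0 CPM in control and 4.85, 3.81 and 5.29 in combination treated tumors, so that control tumor 1 lay within the combination range, and it fell by 1.84 ± 0.53 (adjusted p = 0.0467). Lrrc1, a relative of Scrib in the LAP protein family, measured 2.63, 3.14 and 2.60 CPM in trametinib and 5.05, 11.6 and 8.17 in combination treated tumors, and rose by 1.57 ± 0.30 (adjusted p = 0.037). When each of the 6 tumors was left out in turn, each of these 3 genes passed the adjusted p in 1 of 6 fits, which were those without control tumor 1 for Fat2 and Ror2 and without combination treated tumor 1 for Lrrc1. The adjusted p ranged from 0.0467 to 0.164 for Fat2, from 0.00233 to 0.208 for Ror2 and from 0.0302 to 0.111 for Lrrc1. With the epidermal score in the model none of the 3 passed, at -2.07 for Fat2 (adjusted p = 0.0798), -0.91 for Ror2 (adjusted p = 0.816) and 1.43 for Lrrc1 (adjusted p = 0.861). Ror2 also did not pass with library totals as normalization (adjusted p = 0.0574) or with the groups compared alone (adjusted p = 0.101).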

How the data were processed

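RNA of 12 whole tumors was captured with TruSeq RNA Exome probes and sequenced as paired reads. Reads were aligned by the authors with STAR 2.7.1a (2 passes, GRCm38), and the deposited values are raw counts per gene from featureCounts 1.6.0. For the annotation release, strand setting and multiply mapped reads, the choice was not given in the sources used here. Groups and replicate numbers follow the sample labels, and all columns of the table were used.

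Counts were tested in R 4.3.3 with edgeR 4.0.16 (TMM factors, filterByExpr with a minimum count of 10 and a total of 15, quasi-likelihood test, Benjamini-Hochberg adjustment over 12897 genes) in 1 fit of all 12 libraries. A gene was called at an adjusted p of 0.05 and a log2 difference of 1.5. Tested genes held at least 99.8% of the counts, and the biological coefficient of variation was 27.2%. CPM used TMM library sizes, and exon length came from the deposited table. The test was checked on simulated counts. DESeq2 1.42.0, the edgeR likelihood ratio test, no filter, library totals or the DESeq2 size factors as normalization, only the groups compared, a replicate block, the epidermal score and each tumor left out were alternatives.

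The members and lists were chosen with earlier results of these data known. The named genes were all 8 members, every pathway gene called in a comparison and, by Pearson correlation over 12 libraries, the 5 genes most like Celsr2 and the 3 most like each other member. A gene named by this rule is not reported here. Markers of macrophage, muscle, fat, nerve and hair follicle were also tabulated.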

Additional observations from a re-analysis of the deposited data

How the results depend on the processing

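Over 830 recomputed member values, 49 changed sign, and in 0 of these did either fit pass the adjusted p. No member was called in any of the 106 recounts. The replicate numbers did not pair the tumors: of 18 pairs with the same number, 3 had a correlation of deviations above 0.1 (range -0.219 to 0.356). With the replicate block, the adjusted p in combination against cediranib was 0.0751 for Prickle1 and 0.0565 for Prickle2, the calls of Fat2 (0.0562), Ror2 (0.0684) and Lrrc1 (0.0572) were lost, and 57 genes were called in combination against trametinib instead of 87. Over the 8 settings other than leaving out a tumor, the adjusted p there ranged from 0.0172 to 0.0751 for Prickle1, below 0.05 in 4, and from 0.0126 to 0.12 for Prickle2, below 0.05 in 6. Celsr1 passed the adjusted p only without the filter, at 0.0273 in combination against control, 0.0412 in combination against cediranib and 0.0352 in the trametinib average.

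Leaving out 1 tumor moved the Celsr2 difference to 2.82 to 3.78 in cediranib against control, 4.62 to 5.44 in combination against control, 5.67 to 7.12 in combination against trametinib and 1.20 to 2.02 in combination against cediranib. Calls over all genes rose without the filter to 687 in trametinib against control, 324 in cediranib against control and 1129 in combination against control, from 310, 0 and 466, and to 773, 637, 261 and 701 in combination against trametinib, combination against cediranib, the interaction and the trametinib average, from 87, 316, 0 and 425. DESeq2 and the likelihood ratio test called 347 and 401 genes in combination against trametinib, 10 and 14 in cediranib against control and 28 and 28 in the interaction, and a fit of the groups compared alone called 274 in combination against trametinib. Without 1 tumor, the count was 0 to 21 in combination against trametinib, as low as 237 in combination against control (without control tumor 3), 188 in combination against cediranib (without cediranib treated tumor 1), 7 in cediranib against control (without cediranib treated tumor 2) and 1 in the interaction (without cediranib treated tumor 3). With the epidermal score they fell to 55 in combination against control and 0 in combination against trametinib. Genes near 3 counts, such as Celsr2 in control tumors, are limited by depth.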
